A study of Mus musculus with 4 samples.

Results

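The 37 long non-coding RNAs (lncRNAs) described here are the more abundant of the 145 transcripts that the study assembled from RNA-seq of sorted mouse alpha and beta cells, outside the RefSeq annotation, and then measured in whole islets. They were chosen by their measured level, as the entries that the deposited table marks as assembled lncRNAs and whose mean over the 4 libraries was at least 1 RPKM (reads per kilobase of transcript per 1000000 reads), out of 33923 entries in all. The other 108 assembled lncRNAs lay under that level and are not described. Because the mean over both glucose concentrations chose the members, their level is a description and is not tested. Just inside the threshold were the lncRNAs nearest *Gnb2l1* (mean 1.002 RPKM) and the closer one of a pair near *Erap1* (1.06 RPKM), and just outside were those nearest *Zfp800* (0.980 RPKM), *C530044C16Rik* (0.976 RPKM) and *Tmem65* (0.9497 RPKM). Each lncRNA is called here by its nearest gene, as the study's lncRNA table gives it, which implies no relation between the lncRNA and that gene.

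Whole islets of male C57bl6 mice aged 3 months were pooled, kept overnight at 11 mM glucose, held for 2 h at 2.8 mM glucose and then exposed either to 2.8 mM glucose or to 16.8 mM. There were 2 libraries at each concentration, each made from whole islets, so that every value is a mix of insulin-producing beta cells with the other endocrine and the non-endocrine cells of the islet. The series text gives 12 h of exposure for both concentrations, but the labels of single samples state 2 h at 2.8 mM and 12 h at 16.8 mM, and if the latter hold, concentration and time cannot be told apart. All libraries came from a single pool of islets, and the p-values below therefore measure the spread between libraries of that pool and not between animals.

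lncRNAs are transcripts longer than small RNAs that carry no evident open reading frame. Many are made in few cell types, many stay in the nucleus, and some act on the expression of genes near the site where they are transcribed, while others are by-products of active enhancers or have no known role. In beta cells, glucose enters through a low-affinity transporter, is metabolised in proportion to its concentration and, beyond insulin release, drives transcription of the insulin genes and of many metabolic genes.

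Library depth, recovered from the step that 1 read adds to an lncRNA's RPKM, was between 50800000 and 60710000 reads, and between 96.7% and 100% of the lncRNA values checked were whole reads at that depth. The members were covered by between 54 and 30868 reads in a library. RPKM values of genes were taken here as computed over the genomic span of each transcript, introns included. The study's methods describe counts over RefSeq exons for the sorted cell libraries. Which of these holds for the deposited islet values was not settled here. Defining markers of beta cells were high in every library, and their summed level (6 genes, *Ins1*, *Ins2*, *Mafa*, *Ucn3*, *Slc2a2* and *Iapp*) was 22898 and 20550 RPKM at 2.8 mM and 43707 and 40932 RPKM at 16.8 mM. Of the 6 genes, 5 were higher (limma, adjusted p under 0.05), against 10.7% of all transcripts tested. Most of the sum was *Ins2*, at 18136 and 15943 RPKM at 2.8 mM and 30018 and 27396 RPKM at 16.8 mM. The sum of 5 acinar markers was 48.9 and 138 RPKM at 2.8 mM and 117 and 228 RPKM at 16.8 mM, with replicate 1 at 16.8 mM under replicate 2 at 2.8 mM, and none of the 5 passed the test. The sum of 5 alpha cell markers was 2205, 1689, 2164 and 1531 RPKM in the same order, and that of 3 endothelial markers lay between 0.992 and 1.92 RPKM. No marker was at 0. The part of these other cell types in the lncRNA values was not tested, and in RNA of whole islets a change in the number of cells of a type and a change in RNA per cell cannot be told apart.

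Of the 37 lncRNAs, 26 (70.3%) differed between 16.8 and 2.8 mM glucose at an adjusted p under 0.05, against a background of 33.4% of the 7867 transcripts that entered the same test (limma on log2(RPKM + 0.5), Benjamini-Hochberg adjustment over all of them). For RefSeq coding transcripts that share was 33.3% and for RefSeq non-coding transcripts 32.7%. A total of 11 lncRNAs were higher at 16.8 mM (29.7%, background 10.7%) and 15 were lower (40.5%, background 22.8%). The groups did not overlap for 32 lncRNAs (86.5%), against 70.4% of all transcripts tested. A change of at least 1 on the log2 scale that also passed the test was seen for 8 lncRNAs (21.6%, background 3.52%), of which 6 were higher and 2 lower. With 0.1 RPKM added in place of 0.5, 11 lncRNAs met this limit, 8 of them higher. The median size of the log2 fold change, whatever its sign, was 0.46 over the lncRNAs, 0.22 over coding and 0.30 over non-coding RefSeq transcripts.

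These shares must be read with the way the members were chosen. For 11 lncRNAs the mean at one of the concentrations was under 1 RPKM, so that they reached the minimum through the other. Of these, 5 reached 1 RPKM only at 16.8 mM and all 5 were higher there, and 6 reached it only at 2.8 mM, 5 of them lower at 16.8 mM. Among the remaining 26, which had at least 1 RPKM at both concentrations, 6 were higher, 10 lower and 10 were not called. The share called among all transcripts with that level at both concentrations was not computed. Under a stricter limit, 1 RPKM in every library, 39.6% of 6909 transcripts were called, beside 17 of the 24 lncRNAs left. The limit also bears on the 8 lncRNAs with changes of at least 1 on the log2 scale. Those nearest *N4bp1*, *Vrk1* and *Nkx6-1* reached 1 RPKM only at 16.8 mM, and those nearest *Lpp* and *Tmem17* only at 2.8 mM. The split between higher and lower among called lncRNAs hardly moved with scaling, at 42.3% higher with the deposited values and 40.7% after quantile normalization or centring on the library median, whereas among all called transcripts the share that was higher went from 31.9% to 42.3% and 44.1%. All 26 called lncRNAs were also called under both of these scalings.

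**Figure D1:**
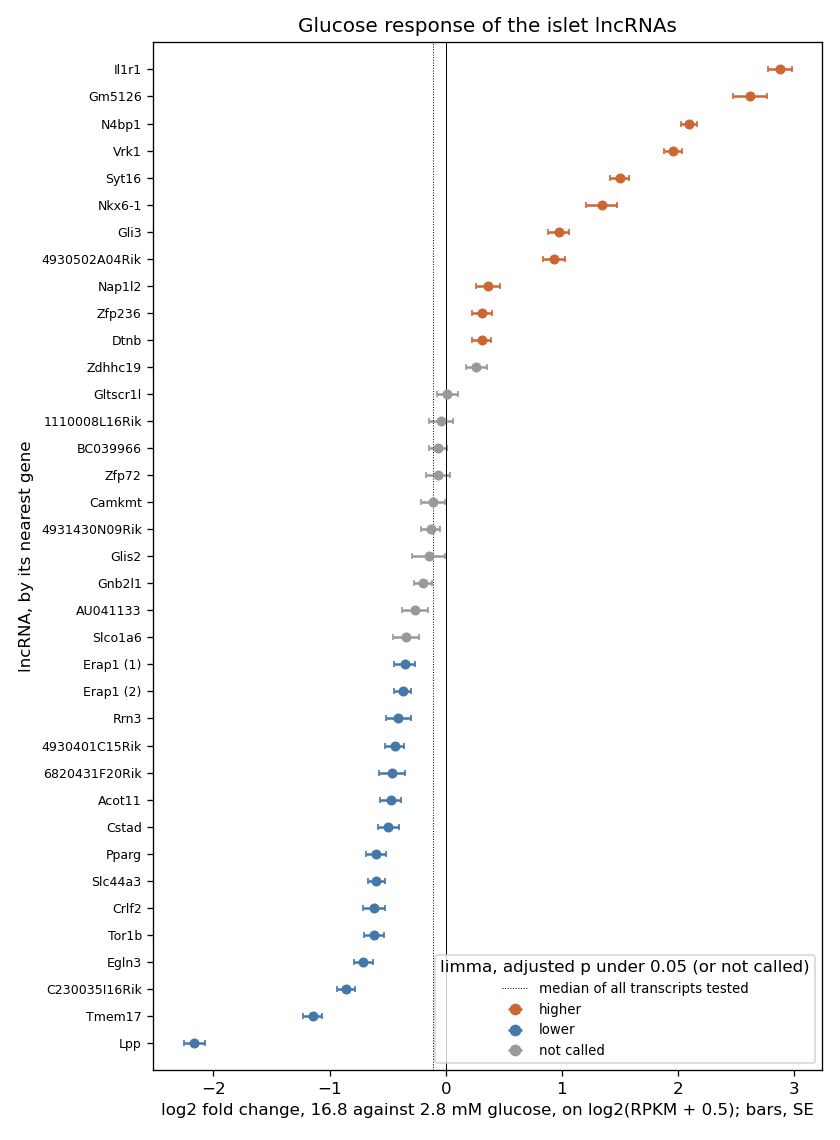
Log2 fold change (x axis, on log2(RPKM + 0.5), 16.8 against 2.8 mM glucose) of each of the 37 lncRNAs, named by the nearest gene; bars are standard errors from limma with 2 libraries per group, colours give the call, and the dotted line is the median of all transcripts tested (-0.11). The lncRNA nearest *Il1r1* lies at 2.88 and that nearest *Lpp* at -2.16, and 11 lncRNAs between -0.34 and 0.26 were not called.

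The lncRNA in the first intron of *Il1r1*, the gene of the signalling receptor for interleukin 1, had the largest log2 fold change of the 37 on log2(RPKM + 0.5). That order depends on the added value: with 0.1 RPKM added the lncRNA nearest *N4bp1* came first (3.24, against 3.08 for *Il1r1*), and with voom on reconstructed reads those nearest *N4bp1* (3.89), *Lpp* (-3.52) and *Vrk1* (3.47) all changed by more than that nearest *Il1r1* (3.13). Its interval is chr1:40293863-40320916 (mm9), which is 27053 bases long. The interval lies in an intron of the longer *Il1r1* transcript and 16042 bases from the nearest start site. The paper describes this lncRNA as upstream of the *Il1r1* start. Its level was 2.19 and 2.22 RPKM in replicates 1 and 2 at 2.8 mM and 18.8 and 19.9 RPKM at 16.8 mM. It was thus 8.78-fold higher in the means of the groups, with a log2 fold change of 2.88 ± 0.10 (SE, n = 2 per group, adjusted p = 1.82e-05, limma). It ranked 12 and 13 among the 37 lncRNAs at 2.8 mM and 1 at 16.8 mM, and its share of all reads in the 37 lncRNAs went from 8.90% and 9.05% to 43.2% and 44.6%. Together the 37 lncRNAs held 0.0665% and 0.0663% of all reads at 2.8 mM and 0.118% and 0.121% at 16.8 mM.

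The lncRNA nearest *Gm5126*, on chrX:100219442-100223252, was measured at 1.14 and 1.02 RPKM at 2.8 mM and at 10.7 and 7.96 RPKM at 16.8 mM, a log2 fold change of 2.62 ± 0.14 (SE, adjusted p = 8.71e-05, limma). Both 16.8 mM libraries lay far above both 2.8 mM libraries, although they differed from each other more than the 2.8 mM libraries did. It moved from rank 30 and 31 to rank 3 in both high-glucose libraries.

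Close to silent at 2.8 mM were the lncRNAs nearest *N4bp1*, the gene of a ribonuclease that restrains inflammatory signalling, and *Vrk1*, the gene of a nuclear serine/threonine kinase. The former (chr8:89443047-89450337) was at 0.162 and 0.145 RPKM at 2.8 mM and at 2.30 and 2.28 RPKM at 16.8 mM (log2 fold change 2.09 ± 0.07, SE, adjusted p = 1.82e-05, limma). The latter (chr12:107243132-107248187) was at 0.183 and 0.217 RPKM against 2.13 and 2.31 RPKM, with a log2 fold change of 1.96 ± 0.08 (SE, adjusted p = 2.46e-05, limma). In ratios of group means these rises were 14.9-fold and 11.1-fold, which the added 0.5 RPKM understates on the log2 scale. They were the 2 least abundant of the 37 at 2.8 mM and stood at ranks 9 to 11 at 16.8 mM.

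The lncRNA in the first intron of *Syt16*, which encodes an atypical synaptotagmin, rose from 1.20 and 1.21 RPKM to 4.34 and 4.30 RPKM, a change of 1.497 ± 0.083 on the log2 scale (SE, adjusted p = 8.91e-05, limma). It lies at chr12:75172793-75183654. Its replicates differed by less than 0.05 RPKM at either concentration.

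At a distance of 90350 bases from *Nkx6-1*, the gene of a homeodomain factor that maintains beta cell identity, lies the longest of the 37 lncRNAs, at 36852 bases (chr5:101984954-102021806). It was at 0.428 and 0.502 RPKM at 2.8 mM and at 1.63 and 2.31 RPKM at 16.8 mM (log2 fold change 1.34 ± 0.13, SE, adjusted p = 0.000779, limma). Its 16.8 mM libraries differed by more than its 2.8 mM libraries and did not overlap them. In a fit without any minimum level, its log2 fold change was the same, 1.34, with an adjusted p of 0.0508 (limma), and it was not called. A further assembled lncRNA near *Nkx6-1*, at chr5:102077332-102084265, lay under the minimum at 0.385 and 0.369 RPKM against 0.689 and 0.647 RPKM.

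The largest fall was that of the lncRNA nearest *Lpp*, the gene of a focal adhesion protein, at chr16:24278625-24286730. It was measured at 2.88 and 2.82 RPKM at 2.8 mM and at 0.301 and 0.197 RPKM at 16.8 mM, so that it was 11.4-fold lower at 16.8 mM (log2 fold change -2.16 ± 0.09, SE, adjusted p = 2.94e-05, limma). It ranked 6 among the 37 at 2.8 mM and last, at 37, in both 16.8 mM libraries. The lncRNA nearest *Tmem17*, the gene of a protein of the ciliary transition zone, fell from 1.79 and 1.97 RPKM to 0.583 and 0.568 RPKM, with a log2 fold change of -1.15 ± 0.08 (SE, adjusted p = 0.000229, limma). It spans chr11:22569485-22594416. For these 8 lncRNAs with the largest changes, the search found no further copy in the genome of at least 500 bases at 95% identity or more. It dropped matches that scored low beside the interval's own match. Short copies of the long intervals could thus be missed, and the search cannot show that copies are absent.

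**Figure D2:**
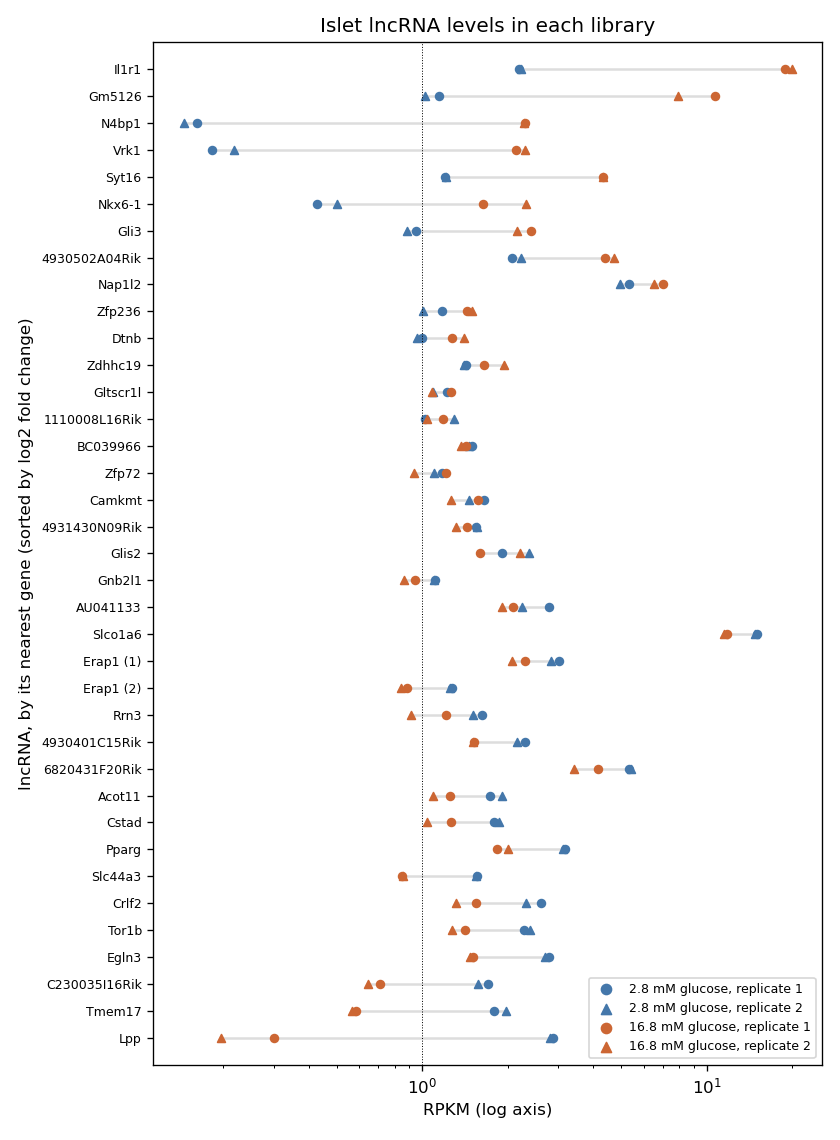
RPKM (x axis, log scale) of each of the 37 lncRNAs in each library, blue at 2.8 mM and orange at 16.8 mM glucose, circles for replicate 1 and triangles for replicate 2, sorted by log2 fold change; the dotted line is 1 RPKM. The lncRNAs nearest *N4bp1* and *Vrk1* lie under 0.25 RPKM at 2.8 mM and above 2 RPKM at 16.8 mM, and that nearest *Lpp* shows the reverse, from above 2.8 to about 0.2 or 0.3 RPKM.

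Short stretches of these 8 lncRNAs are shown because these 8 carried the largest changes. They are read from the plus strand of mm9, since the strand of the lncRNAs is not given. The capitals mark TAATTA, the core bound by many homeodomain factors such as PDX1 and NKX6-1, or CACGTG, the E-box that is also the building block of the carbohydrate response element. For each lncRNA the TAATTA copy with the lowest coordinate is printed with 20 bases on either side, and CACGTG for *Syt16*, whose lncRNA holds no TAATTA. They are, in order, from chr1:40297167-40297212, chrX:100220811-100220856, chr8:89445133-89445178, chr12:107244439-107244484, chr12:75173679-75173724, chr5:101991258-101991303, chr16:24283547-24283592 and chr11:22571220-22571265.
Il1r1 lncRNA: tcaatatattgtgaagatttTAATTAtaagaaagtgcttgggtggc
Gm5126 lncRNA: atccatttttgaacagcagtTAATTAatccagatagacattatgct
N4bp1 lncRNA: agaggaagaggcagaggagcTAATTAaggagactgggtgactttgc
Vrk1 lncRNA: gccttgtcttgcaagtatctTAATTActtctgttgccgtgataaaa
Syt16 lncRNA: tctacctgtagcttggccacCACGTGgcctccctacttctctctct
Nkx6-1 lncRNA: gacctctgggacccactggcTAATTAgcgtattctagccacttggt
Lpp lncRNA: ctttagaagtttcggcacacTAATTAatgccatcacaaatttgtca
Tmem17 lncRNA: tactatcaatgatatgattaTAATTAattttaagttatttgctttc

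Both motifs are palindromes, so that a match is on both strands at once, and neither overlaps the other in these stretches. TAATTA was found in 7.06% of the 1161 windows of 300 bases cut from the 37 lncRNAs, in 8.50% of 2766 windows of the other 108 assembled lncRNAs and in 5.29% of 32851 promoters of the same length (RefSeq, GRCm38.p6). CACGTG was found in 3.79%, 3.29% and 7.15%. Of the full carbohydrate response element, only a spaced pair of 2 exact copies of this E-box was searched, and it was found in none of the 3 sets. Pairs with an inexact copy were not searched. Since the promoters held no exact pair either, this search cannot tell the sets apart or show that the element is absent. These shares describe letters in windows and carry no test. The lncRNA nearest *Nkx6-1*, the longest, held 15 copies of TAATTA, and that nearest *Lpp* held 2. CAGATG, an E-box form read by NEUROD1 among others, was in 21.7% of member windows against 23.0% and 17.2%, and TGCTGAC, a site read by MAF factors, in 5.60% against 4.52% and 4.67%. TGACGTCA, the cAMP response element, was in 0.172% against 0.181% and 1.79%, TGACTCA, the AP-1 site, in 4.48% against 4.81% and 5.20%, and ACCGGAAGT, an ETS site, in 0.0861% against 0.0362% and 1.10% (these were searched on both strands).

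A further 5 lncRNAs were higher at 16.8 mM by 0.31 to 0.97 on log2(RPKM + 0.5), with adjusted p between 0.00058 and 0.0347 (limma). The lncRNA in intron 2 of *Gli3*, which encodes a transcription factor of Hedgehog signalling, was at 0.953 and 0.882 RPKM at 2.8 mM and at 2.41 and 2.15 RPKM at 16.8 mM (log2 fold change 0.97 ± 0.09, SE, adjusted p = 0.00058, limma). The lncRNA nearest *4930502A04Rik* rose from 2.07 and 2.23 RPKM to 4.38 and 4.73 RPKM (2.12-fold). With 0.1 RPKM added in place of 0.5, the log2 fold changes of these were 1.23 and 1.05, so that they stay under 1 through the added value. The 3 smallest rises were those nearest *Nap1l2* (log2 fold change 0.37), *Zfp236* (0.31) and *Dtnb* (0.31). These calls were lost with fewer libraries while the sizes moved little: without 16.8 mM replicate 2, all 3 lost the call (0.41, 0.29 and 0.26), as they did without 2.8 mM replicate 2 (0.32, 0.23 and 0.29), and that nearest *Nap1l2* also lost it without 16.8 mM replicate 1 (0.32).

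The 13 further lncRNAs that were lower at 16.8 mM had log2 fold changes between -0.86 and -0.35 and adjusted p between 0.000617 and 0.0265 (limma). The largest of these falls was that of the lncRNA nearest *C230035I16Rik*, to 0.710 and 0.643 RPKM from 1.70 and 1.58 RPKM. The lncRNA 33948 bases from *Pparg*, which encodes the nuclear receptor that drives fat cell differentiation, was at 3.18 and 3.13 RPKM at 2.8 mM and 1.82 and 2.01 RPKM at 16.8 mM (log2 fold change -0.60 ± 0.09, SE, adjusted p = 0.00345, limma), with no overlap between the groups. Falls close to -0.60 were also seen for the lncRNAs nearest *Slc44a3*, *Crlf2* and *Tor1b* (-0.60, -0.62 and -0.62), and smaller falls for those nearest *Cstad*, *Acot11*, *6820431F20Rik*, *4930401C15Rik* and *Rrn3*, from -0.49 to -0.41. Without 16.8 mM replicate 2 the lncRNAs nearest *6820431F20Rik* and *Rrn3* and the more distant one near *Erap1* were no longer called (-0.34, -0.27 and -0.29), and the last also lost the call without 2.8 mM replicate 1 (-0.32). Exons of *5430403G16Rik* cover 88.7% of the *Crlf2* interval, so its reads and those of that gene cannot be told apart.

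For 11 lncRNAs no difference passed the test, with log2 fold changes between -0.34 and 0.26 and adjusted p between 0.0529 and 0.927 (limma). Their 95% intervals reach from -0.60 to 0.48, so a change of the size seen for the lncRNA nearest *Il1r1* lies outside all of them. That range does hold the smaller called changes, such as those nearest *Nap1l2* (0.37) and *Erap1* (-0.35 and -0.37). Before adjustment, the intervals nearest *Slco1a6* (-0.60 to -0.08), *Gnb2l1* (-0.37 to -0.02) and *Zdhhc19* (0.05 to 0.48) leave out 0. The most abundant of the 37, in the first intron of *Slco1a6*, the gene of an organic anion transporter, is one of the 11. It was at 15.0 and 14.8 RPKM at 2.8 mM and 11.8 and 11.5 RPKM at 16.8 mM, which do not overlap, with a log2 fold change of -0.34 ± 0.11 (SE, adjusted p = 0.0529, limma). It stood at rank 1 at 2.8 mM and rank 2 at 16.8 mM, and most other fits called it. After the lncRNAs of *Slco1a6* and *Il1r1*, that nearest *Nap1l2* came next by mean level, with 5.33 and 4.95 RPKM at 2.8 mM and 7.002 and 6.545 RPKM at 16.8 mM. A pair of uncalled lncRNAs were called when 1 library was left out, that nearest *AU041133* without 2.8 mM replicate 2 (-0.40) and that nearest *Zdhhc19* without 16.8 mM replicate 1 (0.35).

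By position, 7 of the 37 lncRNAs lie inside an intron of a RefSeq gene (of 18 such among the 145) and 30 lie between genes (of 127). Of the intronic lncRNAs 3 were higher, 1 lower and 3 not called, and of the intergenic ones 8 were higher, 14 lower and 8 not called, beside 10.7% higher and 22.8% lower over all transcripts tested. The intronic lncRNA that fell lies in intron 5 of *Npas3*, which encodes a neuronal bHLH-PAS transcription factor, while its nearest start site is that of *Egln3*, at a distance of 331476 bases. It was at 2.80 and 2.71 RPKM at 2.8 mM and 1.503 and 1.470 RPKM at 16.8 mM (log2 fold change -0.71 ± 0.08, SE, adjusted p = 0.00139, limma). The lncRNA in intron 3 of *Camkmt*, which encodes a calmodulin methyltransferase, was at 1.65 and 1.47 RPKM against 1.57 and 1.26 RPKM. The lncRNA in intron 3 of *Cacna1c*, the gene of the main L-type calcium channel subunit of beta cells, was at 1.55 and 1.56 RPKM against 1.44 and 1.31 RPKM. Neither of these passed the test.

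If a gene's RPKM was counted over its whole span, the reads of an intronic lncRNA are also part of the value of its host. The shares and remainders below take this as given. In *Syt16* they made up 69.9% and 72.2% of all reads in the span at 2.8 mM and 87.8% and 91.0% at 16.8 mM. Outside the lncRNA, *Syt16* held 5.61 and 5.08 reads per 1000000 at 2.8 mM and 6.56 and 4.61 at 16.8 mM, with overlap between the groups, so the difference in the deposited value of *Syt16* (0.0691 and 0.0676 RPKM against 0.199 and 0.190 RPKM) lay in the lncRNA interval. *Gli3* showed another pattern. Its lncRNA held between 83.1% and 85.1% of the reads in every library, and the rest of the gene was also higher at 16.8 mM, going from 3.47 and 3.04 to 7.54 and 6.83 reads per 1000000.

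In *Il1r1* the lncRNA held 14.8% and 15.6% of the span's reads at 2.8 mM and 52.4% and 53.9% at 16.8 mM. The longer *Il1r1* transcript, whose span holds the lncRNA, was called higher by 1.24 on the log2 scale (adjusted p = 0.00046, limma), while the reads of that span outside the lncRNA went from 340 and 324 to 462 and 460 per 1000000, 1.39-fold. In *Npas3* the lncRNA held between 56.0% and 63.3% of the reads, and the rest was lower too, going from 9.39 and 12.4 to 6.03 and 6.30 reads per 1000000. In *Slco1a6* its share was 60.5% and 59.0% at 2.8 mM and 55.5% and 53.6% at 16.8 mM, beside a rest that ranged from 48.2 to 52.5 reads per 1000000 and overlapped between groups. In *Cacna1c* the share was between 5.30% and 6.36%. These values outside the lncRNA come from reads reconstructed from RPKM and carry no test.

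**Figure D3:**
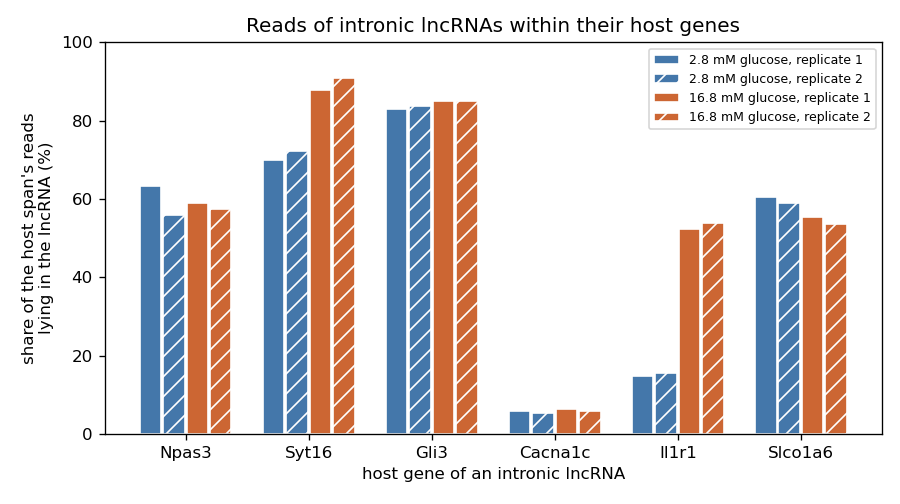
Share (%, y axis) of the reads in the genomic span of 6 host genes that lie in the intronic lncRNA, per library, blue at 2.8 mM and orange at 16.8 mM glucose, hatched for replicate 2. Gene values were taken as counted over the whole span. The share rises from 69.9% and 72.2% to 87.8% and 91.0% in *Syt16* and from 14.8% and 15.6% to 52.4% and 53.9% in *Il1r1*, and stays between 83.1% and 85.1% in *Gli3*.

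The 37 lncRNAs have 36 distinct nearest genes, whose own values were set beside those of the lncRNAs. Only 11 of these genes reached the minimum of 1 RPKM and were tested, and 4 of the 11 were called, a share near the background of 33.4% of all transcripts tested. *Il1r1* (as its shorter transcript) was at 6.78 and 6.47 RPKM at 2.8 mM and 9.27 and 9.21 RPKM at 16.8 mM (log2 fold change 0.45 ± 0.10, SE, adjusted p = 0.0172, limma). *Nap1l2*, a nucleosome assembly gene, was at 4.03 and 3.59 against 5.87 and 5.18 RPKM (0.48 ± 0.11, adjusted p = 0.017, limma). The lower genes were *Tor1b*, a torsin ATPase, with 15.3 and 14.0 against 9.47 and 8.71 RPKM (-0.66 ± 0.12, adjusted p = 0.00679, limma), and the non-coding *6820431F20Rik*, with 11.4 and 11.1 against 7.63 and 6.64 RPKM (-0.62 ± 0.12, adjusted p = 0.00806, limma). In each of these 4 cases the lncRNA was called in the same direction as the gene, and no called pair went opposite ways. Both lower pairs carry a limit. Copies elsewhere cover 97.7% of the lncRNA interval nearest *6820431F20Rik*, and the interval nearest *Tor1b* overlaps exon sequence of another gene, *Ptges*. Genes under the minimum were not tested, but their values went both ways. Beside 16 called lncRNAs with such a gene, the gene did not overlap between the groups in the direction of the lncRNA for 11, did so in the opposite direction for 4 and overlapped for 1. Among all transcripts tested, 70.4% did not overlap in either direction, and that share was not computed for genes under the minimum. The opposite cases were *Slc44a3* (0.437 and 0.430 RPKM at 2.8 mM, 0.756 and 0.753 RPKM at 16.8 mM, lncRNA lower), *Egln3* (0.0371 and 0.117 against 0.463 and 0.454 RPKM, lncRNA lower), *Dtnb* (0.489 and 0.479 against 0.251 and 0.240 RPKM, lncRNA higher) and *N4bp1*, whose values follow. *Syt16* and *Gli3* are among the 11, and under a count over the whole span their values include the reads of their lncRNAs.

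For 6 called lncRNAs the nearest gene was tested and not called, namely those near *Gm5126*, *Nkx6-1*, *Acot11*, *Crlf2* and the pair near *Erap1*. *Nkx6-1* itself was at 11.0 and 10.1 RPKM at 2.8 mM and 12.0 and 14.1 RPKM at 16.8 mM (log2 fold change 0.29 ± 0.13, SE, adjusted p = 0.126, limma), beside 1.34 for its lncRNA. *Gm5126* was at 1.56, 1.11, 1.83 and 1.49 RPKM in the order of the libraries, with overlap between the groups. The other 25 genes were too low to be tested, among them *Pparg*, at 0.307 and 0.349 RPKM against 0.104 and 0.108 RPKM, *Lpp* (0.598 and 0.540 against 0.502 and 0.479 RPKM), *N4bp1* (1.10 and 1.05 against 0.922 and 0.841 RPKM) and *Vrk1* (0.518 and 0.504 against 0.710 and 0.719 RPKM). A lncRNA and its nearest gene were measured in the same libraries, and the difference between their changes was not tested.

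**Figure D4:**
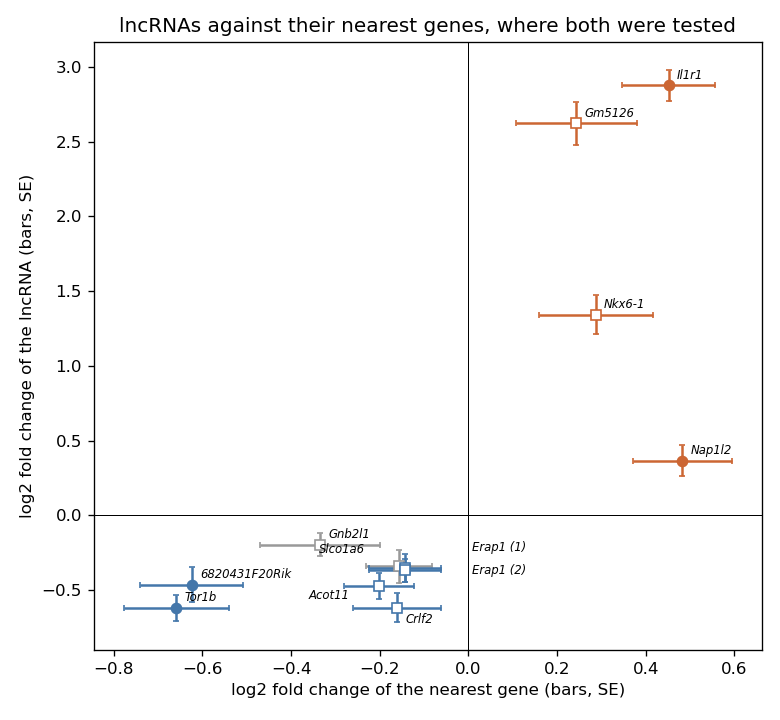
Log2 fold change of the lncRNA (y axis) against that of its nearest gene (x axis) for the 12 lncRNAs whose nearest gene was tested; bars are standard errors from limma, filled circles mark pairs whose gene was called and open squares the others, with the lncRNA's call as colour. The lncRNAs nearest *Il1r1* and *Gm5126* lie above 2.5 while their genes lie under 0.5.

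On the X chromosome, the lncRNAs nearest *Gm5126* and *Nap1l2* are 31181 bases apart and both were higher at 16.8 mM, by 2.62 and 0.37 on the log2 scale. Another assembled lncRNA lies between them (chrX:100246453-100253801), under the minimum at 0.300 and 0.238 RPKM against 0.715 and 0.571 RPKM. On chromosome 13, the lncRNAs near *Erap1* (chr13:74742245-74745372 and chr13:74747577-74750614) lie 2205 bases apart. The former was at 3.01 and 2.84 RPKM at 2.8 mM and 2.30 and 2.06 RPKM at 16.8 mM, and the latter at 1.27 and 1.25 against 0.884 and 0.843 RPKM. Both fell by a similar amount (-0.35 and -0.37 on the log2 scale). The latter has a copy at 95.7% identity over 99.9% of its length elsewhere on chromosome 13, so its reads are uncertain. So are those of the lncRNAs nearest *AU041133* (copies over 100% of the interval), *6820431F20Rik* (97.7%) and *Zfp236* (67.0%). The longest copies of these were at 98.4%, 96.9% and 98.6% identity. Copies over 28.4% of the *Slco1a6* lncRNA and 13.4% of the *Nap1l2* lncRNA were also found.

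The lncRNA intervals were between 3037 and 36852 bases long, with a median of 6124 bases against 4718.5 for the lncRNAs under 1 RPKM. Those that were higher had a median length of 9557 bases, those that were lower 5799 and those not called 5101. The nearest start site was between 2814 and 331476 bases away, with a median of 33512 bases, under 10 kb for 5 lncRNAs and over 100 kb for 7. The G and C content ranged from 36.4% to 55.2%, with a median of 43.9% (44.7% under 1 RPKM), and CpG dinucleotides were at a median of 0.198 of the number that base composition gives (0.192 under 1 RPKM). In the GENCODE M1 annotation of the same build, 21 lncRNAs lay in no gene, 9 inside a gene but in no exon, and 7 overlapped an exon. Exons covered 88.7% of the interval nearest *Crlf2*, 14.6% of that nearest *Zfp236* and 8.29% of that nearest *Slco1a6*. The shares were 4.37% for *Cstad*, 2.41% for *Acot11*, 1.84% for *BC039966* and 1.67% for *Tor1b*. For the interval nearest *Acot11*, the exon sequence is of *Acot11* itself.

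Annotated genes of the pathway give a frame for these values. Over all transcripts tested, 10.7% were called higher and 22.8% lower, which is the background for the counts that follow. Of 10 beta cell transcription factors, 7 were higher at 16.8 mM and 1, *Rfx6*, was lower, while *Nkx6-1* and *Foxa2* were not called. The largest rise was that of *Mafa*, an activator of the insulin promoters, from 13.7 and 10.2 RPKM to 57.5 and 76.2 RPKM (log2 fold change 2.44). Of 6 genes known to respond to glucose, 4 were higher, with *G6pc2*, the islet glucose-6-phosphatase, at 27.5 and 25.9 against 177 and 202 RPKM (2.80), and 1, the pyruvate kinase gene *Pklr*, was lower. Of 20 annotated lncRNAs, 14 were tested, and 4 were higher (*Meg3*, *Rian*, *Mirg* and *H19*, maternally expressed imprinted RNAs) and 4 lower (*Malat1*, *Snhg1*, *Snhg12* and *A530058N18Rik*), where 32.7% of RefSeq non-coding transcripts were called in either direction.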

How the data were processed

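RNA-seq of 4 islet libraries was analysed. The authors deposited 1 table of RPKM values per transcript, whose 4 sample columns entered the analysis. The processing notes and methods name STAR, the mm9 genome, bedtools and DESeq, without describing these libraries apart. Whether strand was used in counting is not given in the sources used here. The labels set the groups, and the labels' replicate numbers only name libraries.

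Values on the scale log2(RPKM + 0.5) were compared for transcripts that averaged 1 RPKM or more, identical entries of a gene once, with limma 3.58.1 (R 4.3.3) with a variance trend and Benjamini-Hochberg adjustment at 0.05. With 2 libraries per group, an exact two-sided permutation test of a single value cannot go below p = 0.333. Replicates differed beyond sampling noise over the reads of the 145 lncRNAs (chi-square per degree of freedom 1.83 at 2.8 mM and 6.29 at 16.8 mM). Pearson's r across transcripts was 0.980 between replicates and 0.927 to 0.939 across concentrations. Reads were reconstructed from RPKM, span and recovered depth, and are estimates of the authors' counts. Host spans came from the study's table for *Syt16* and *Slco1a6* and from GENCODE M1 otherwise.

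Python 3.11.15, pandas 2.3.3, numpy 2.4.6, scipy 1.17.1, pysam 0.24.0 and matplotlib 3.10.9 were used, and copies were sought with minimap2 2.31. The fit was tested on simulated data. The members and gene lists were chosen with earlier results of these data known. Values are given in every library for lncRNAs called with a log2 fold change of at least 1 in size, the 3 most abundant, those inside introns, those within 100 kb of one another and those near selected islet genes. *C230035I16Rik*, *4930502A04Rik* and the listed genes named with values were named after their values were seen. Alternatives were 0.1 or 1 RPKM added, no minimum, 1 RPKM in every library, quantile normalization, median centring, no trend, the replicate block, all entries as deposited, voom on reconstructed reads with and without the block, and leaving out each library.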

Additional observations from a re-analysis of the deposited data

How the results depend on the processing

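Over 15 alternatives, 17 of the 37 lncRNAs, among them 16 of the 26 called, kept direction and side of the threshold wherever they were fitted. Of 542 refits of a lncRNA, 491 were alike, 21 lost the call, 17 gained it and 13 changed sign. With no minimum RPKM, 17 lncRNAs were called, 7 of them higher, and 13 nearest genes, beside 9.13% of all 28047 transcripts. With 1 RPKM required in every library, 17 of the 24 lncRNAs left were called, 7 of them higher, beside 39.6% of 6909 transcripts. Leaving out 1 library gave 20 to 26 called lncRNAs, 8 to 11 higher and 12 to 16 lower, 1825 to 2579 called transcripts and 2 to 5 nearest genes, the 2 being without 16.8 mM replicate 1. Voom on reconstructed reads called 7528 transcripts and 21 nearest genes, of 17713 and 30 tested, and 42.5% of transcripts against 33.4%; the cause was not tested.

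Libraries of the same replicate number deviated together (correlation 0.31 across transcripts), but nothing says that a number marks a shared origin. With the replicate block, 29 of 37 lncRNAs and 8 of 11 nearest genes were called, beside 4067 of 7867 transcripts (51.7%). With voom and the block, 24 nearest genes were called, beside 10176 of 17713 transcripts (57.4%).

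The changes of sign were all of uncalled lncRNAs near 0: *BC039966* (0.015 after quantile normalization, 0.022 after centring), *1110008L16Rik* (0.055 and 0.044, and -0.16 to 0.078 without a library), *Zfp72* (0.038 and 0.019, and -0.19 to 0.064 without a library), and, without a library, *Gltscr1l* (-0.067 to 0.090), *Glis2* (-0.33 to 0.033) and *Camkmt* (-0.22 to 0.0074).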

Other observations

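Runs of purines on one strand were common in the lncRNAs with the largest changes. A window of 100 bases with at least 95 bases that were A or G (or C or T) was sought. Such a window was held by 7 of the 8 lncRNAs called with a log2 fold change of at least 1 in size. Among all 37 lncRNAs, which include these 8, it was held by 12 (32.4%). Among the 108 under 1 RPKM it was held by 23 (21.3%). The measure was chosen after the sequences were seen, longer lncRNAs offer more windows, and no test was made. The windows of the lncRNAs nearest *N4bp1* (chr8:89446964-89447063) and *Il1r1* (chr1:40301734-40301833), read from the plus strand of mm9, are shown as examples, chosen after the sequences were seen, in which all 100 bases are of one kind.
N4bp1 lncRNA: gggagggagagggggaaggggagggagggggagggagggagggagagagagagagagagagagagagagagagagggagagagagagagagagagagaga
Il1r1 lncRNA: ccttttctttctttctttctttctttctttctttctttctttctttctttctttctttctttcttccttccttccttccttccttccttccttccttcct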
